A study of Rattus norvegicus with 8 samples.

Results

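The interferon-induced antiviral genes described here are Ifit1, Ifit2, Rsad2, Cmpk2, Isg20, Bst2, Slfn4, Isg15, Irf7 and Ifi27. Every probe set whose array annotation gave exactly 1 symbol, equal to one of these 10, was taken, which yielded 13 of 31042 probe sets for transcripts and 10 of 14217 named genes. Ifit2, Cmpk2 and Slfn4 had 2 probe sets each and the other 7 genes had 1. Among interferon-induced genes they had been chosen by their high level or wide spread in these same arrays, so level and spread are given as description, without a test. The samples were blood of male Wistar rats, bought at 7 weeks of age and given normal chow for a week. Of the animals used, 4 then ate a high-fat diet (Quick fat) for 8 weeks, and the other 4 ate a normal diet (CE-2) for the same time. All were bled under anesthesia on day 56 after an overnight fast. The labels speak of 10 rats in each diet group and do not say how the 4 were taken. They call the arrays biological replicates, and each was treated as 1 animal. Animals given mulberry powder are not analysed here.

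Type I interferons are secreted by cells that sense foreign nucleic acid. They bind a receptor on the surface of nearly all nucleated cells, where the kinases Jak1 and Tyk2 start a signal to the nucleus. Transcription factors, Irf9 among them, then bind interferon-stimulated response elements in promoters and switch on genes that block viral entry, translation, replication or release. Leukocytes keep a low tonic level of this programme, and in whole blood such genes are widely used as a readout of recent interferon exposure. In bulk blood, fewer cells of a type and less RNA per cell cannot be told apart.

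Promoter sequence was not used to choose the genes, but they were picked as interferon-induced, so an interferon response element in them restates that choice and bears on no result below. RefSeq promoters of build GRCr8, running from 250 bases before to 50 bases after a gene's start, matched 7 of the 10 genes by symbol, and Ifit1, Ifit2 and Isg15 were not searched. The search was for the core of the interferon-stimulated response element, read as GAAA, any 2 bases and GAAA, on both strands. It was found in 5 of the 7 member promoters (Bst2, Ifi27, Irf7, Isg20 and Rsad2) and in 3.92% of all 33469 promoters of the same length. Bst2 and Ifi27 held 2 matches, as did 0.266% of all promoters. No match was found in the windows of Cmpk2 and Slfn4. The gamma-activated site, read as TTC, any 3 bases and GAA, which reads alike on both strands, was found in the Bst2 window, where it overlaps the response element, and in 8.87% of all promoters. The windows shown, each on the strand of its gene with the response element matches in capitals, are those of Irf7 and Isg20 with 1 match, of Bst2 with a pair that overlaps, and of Slfn4 with none.
Irf7 promoter, chr1:205799974-205800273, - strand: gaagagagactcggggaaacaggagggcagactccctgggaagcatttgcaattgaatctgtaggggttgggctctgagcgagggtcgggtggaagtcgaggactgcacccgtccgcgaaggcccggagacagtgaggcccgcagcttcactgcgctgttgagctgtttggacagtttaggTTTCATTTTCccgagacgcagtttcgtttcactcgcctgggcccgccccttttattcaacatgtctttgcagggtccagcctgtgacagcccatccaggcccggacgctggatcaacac
Isg20 promoter, chr1:142239809-142240108, + strand: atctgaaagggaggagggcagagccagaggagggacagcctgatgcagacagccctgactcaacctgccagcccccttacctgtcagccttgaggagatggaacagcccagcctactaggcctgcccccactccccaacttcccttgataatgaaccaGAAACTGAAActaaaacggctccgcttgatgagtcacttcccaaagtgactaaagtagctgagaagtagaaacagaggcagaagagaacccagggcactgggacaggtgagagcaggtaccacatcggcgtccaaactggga
Bst2 promoter, chr16:18254918-18255217, - strand: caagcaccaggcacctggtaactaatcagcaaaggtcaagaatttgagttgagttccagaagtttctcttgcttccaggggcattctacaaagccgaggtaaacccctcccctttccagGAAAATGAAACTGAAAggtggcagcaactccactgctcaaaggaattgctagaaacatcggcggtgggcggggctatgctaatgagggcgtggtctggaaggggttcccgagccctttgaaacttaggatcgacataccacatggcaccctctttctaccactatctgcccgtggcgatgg
Slfn4 promoter, chr10:68491970-68492269, + strand: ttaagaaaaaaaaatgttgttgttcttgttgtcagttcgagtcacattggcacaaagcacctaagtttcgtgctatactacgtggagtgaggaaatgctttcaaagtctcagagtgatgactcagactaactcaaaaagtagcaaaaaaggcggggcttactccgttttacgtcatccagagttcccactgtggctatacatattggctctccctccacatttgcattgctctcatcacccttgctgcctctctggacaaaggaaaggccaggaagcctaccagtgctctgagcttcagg
The match of Irf7 began 69 bases before the start and that of Isg20 92 bases before it, while the pair in Bst2 began 131 and 125 bases before it. The remaining matches, with their own letters in capitals, were these.
Rsad2, 147 bases before the start: TTTCATTTTC
Ifi27, 169 bases before the start: GAAAAGGAAA
Ifi27, 84 bases before the start: GAAATGGAAA
The Irf7 and Rsad2 matches have the same letters, as do the Isg20 match and the second one of Bst2. A match is a run of letters and not evidence of binding.

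The values are those of the authors' deposited table, which read as log2 array intensities with a median of 6.6 in each array. Arrays differed very little in it. Probe sets had a median between-array SD of 6.07e-06, and the largest was 0.139, so the deposited differences are not log2 ratios of RNA amount, and no fold changes are given. Scaled levels and differences in SDs are used instead. The scaled level of a probe set is its distance from its own mean over the 8 arrays, in SDs over the 8 arrays. The difference between diets is high-fat minus normal, in deposited units or in within-group SDs, the pooled SD inside the diets. Brightness depends on the probes, so levels place a probe set within the array and do not rank genes by RNA. Globin and red cell genes marked the samples as blood, with Hbb at a level of 15.09 and Alas2, the first enzyme of heme synthesis in red cells, at 13.68. Normal replicate 3 stood apart from the other arrays. It held the lowest value of 18.9% and the highest value of 21.3% of all probe sets, where the other 7 arrays held from 8.6% to 14.4% and from 8.7% to 13.8%.

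Most of these genes were bright in fasting blood. Rsad2, the radical enzyme viperin that makes a chain-terminating nucleotide, had a level of 13.29, above 99.9% of probe sets. Irf7, the transcription factor that amplifies interferon production, stood at 10.62, above 99.1% of them. Slfn4, a Schlafen family gene known from mouse myeloid cells, had 9.53 in its brighter probe set, Isg20, an RNA exonuclease, 9.31, and Cmpk2, a mitochondrial nucleotide kinase, 8.91 in its brighter one. Ifi27, a small hydrophobic protein of internal membranes, was at 8.57, Bst2, the tetherin that holds budding virus at the cell surface, at 7.82, and Isg15, a ubiquitin-like protein that is attached to other proteins, at 7.66. Ifit1 and Ifit2, RNA-binding proteins that curb translation of foreign RNA, had levels of 6.93 and 6.92, above 67.1% and 66.7% of probe sets. The dimmer probe sets of Cmpk2, Ifit2 and Slfn4 had 7.72, 6.6 and 6.51. The dimmer Slfn4 probe set was the 1 member below the array median.

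Spread was wide for most members and differed greatly among them. Ifi27 had an SD over the 8 arrays of 0.0256, the largest of the 13, and a range of 0.0756. Slfn4 followed with an SD of 0.00559 in its brighter probe set, then Ifit2 with 0.00342 and Irf7 with 0.00323. In Rsad2, the brightest member, the SD was 2.26e-05, and in Isg20 it was 3.99e-05. These 2 lay above 83.9% and 90.7% of all probe sets, and the other members with a wide spread lay above at least 96.1%. The dimmer probe set of Slfn4 was the exception, with an SD of 9.45e-07, above 5.9% of probe sets. Its values ran against those of the brighter one (r = -0.47 over the 8 arrays), whereas the 2 probe sets of Ifit2 (r = 0.97) and of Cmpk2 (r = 0.94) followed each other. The wider probe set was the brighter one in all 3 genes, by a ratio of SDs of 2.33 in Ifit2, 4.17 in Cmpk2 and 5914 in Slfn4.

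None of these genes was distinguished between the diets. With limma across all probe sets and Benjamini-Hochberg adjustment, 0 of the 13 member probe sets passed an adjusted p of 0.05, as did 0 of 31042 (0%), and the adjusted p of every member was 1.00. Before adjustment 2 of the 13, Cmpk2 and Isg20, had a p under 0.05, against 2.25% of all probe sets. Means were higher in the high-fat group for 12 of the 13, against 46.6% of all probe sets and 52.5% of those with an SD at least that of Rsad2. The median member stood 1.22 within-group SDs above normal and the median of all probe sets at -0.048. More than 1 within-group SD was reached by 8 of the 13 members, against 5.62% of all probe sets. These counts describe 10 genes chosen with earlier results of these data in view, and several of them varied together over the animals, so they are not separate observations. The count of 12 was 10 when both normal replicate 3 and high-fat replicate 4 were left out. With quantile normalization on top it was 9, with 1 lower and 3 at no difference, against 22.3% of all probe sets higher. It was 10, against 1.63%, with each array centred on its median, a step that moves every difference by -6.60e-05. That is more than the median SD of 6.07e-06, so it turns most narrow probe sets negative. The 1.63% is therefore no yardstick for members picked for high level or wide spread.

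**Figure D1:**
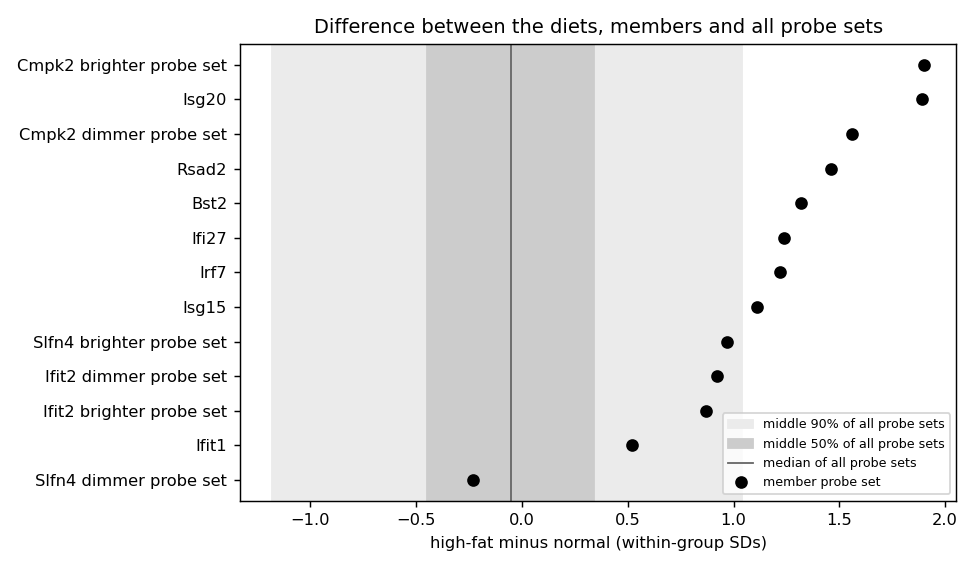
Difference between the diets for each member probe set, as high-fat minus normal in within-group SDs (points), with shaded bands for the middle 50% and 90% of all 31042 probe sets and a line at their median. Of the 13 members, 12 lie to the right of 0, from 0.52 (Ifit1) to 1.90 (Cmpk2), and the dimmer Slfn4 probe set lies at -0.23.

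Among the effectors, Cmpk2 and Isg20 had the largest differences. The scaled levels of Cmpk2 (brighter probe set) were 0.60, 0.00, 1.88 and 0.28 in high-fat replicates 1 to 4, against -1.39, -0.45, -0.93 and 0.01 in normal replicates 1 to 4. High-fat replicate 3 was highest and normal replicate 1 lowest, and the groups overlapped only in that normal replicate 4 lay just above high-fat replicate 2. The mean was 5.63e-04 ± 1.97e-04 (SE, n = 4 and 4) higher with the high-fat diet, or 1.90 within-group SDs (-0.01 with quantile normalization on top), with a limma p of 0.0251 before adjustment and an adjusted p of 1.00. Its dimmer probe set, in which high-fat replicate 3 was again highest, stood 1.56 within-group SDs above normal, and 0.56 with centring on array medians. For Isg20 the scaled levels were 0.36, 0.33, 1.23 and 0.84 in high-fat replicates 1 to 4, against -2.05, -0.19, -0.55 and 0.03 in normal replicates 1 to 4. The lowest high-fat animal exceeded the highest normal one. This held for 1 member probe set of 13, against 0.586% of all probe sets, while 1.44% of all probe sets did not overlap in either direction. The Isg20 difference was 5.51e-05 ± 1.94e-05 (SE, n = 4 and 4), or 1.89 within-group SDs, and -0.19 with each array centred on its median. Its limma p was 0.0257 before adjustment and 1.00 after it. Rsad2 had scaled levels of 1.80, 0.63, 0.19 and -0.22 in high-fat replicates 1 to 4, against -0.24, -0.05, -1.75 and -0.36 in normal replicates 1 to 4. High-fat replicate 1 was highest and normal replicate 3 lowest, with high-fat replicate 4 inside the normal range. Its difference was 1.46 within-group SDs, and -0.64 with centring. With quantile normalization on top, Rsad2 and Isg20 were left with no spread or no difference.

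Bst2 had scaled levels of -0.11, 0.51, -0.28 and 2.16 in high-fat replicates 1 to 4, against -1.22, -0.17, -0.66 and -0.22 in normal replicates 1 to 4. A single high-fat animal, replicate 4, stood far above the rest, and high-fat replicate 3 lay inside the normal range. The difference was 1.32 within-group SDs. Quantile normalization gave 0.71. In Ifit2 the brighter probe set had scaled levels of 0.50, -0.51, 0.07 and 1.62 in high-fat replicates 1 to 4, against -0.66, 0.44, -1.77 and 0.31 in normal replicates 1 to 4. The groups overlapped broadly, with high-fat replicate 4 highest and normal replicate 3 lowest. Slfn4 repeated this order closely, with 0.65, -0.32, -0.05 and 1.53 in high-fat replicates 1 to 4, against -0.62, 0.23, -1.87 and 0.43 in normal replicates 1 to 4. Their differences were 0.87 and 0.97 within-group SDs, and 0.92 for the dimmer Ifit2 probe set. Without normal replicate 3 these were 0.49, 0.60 and 0.54, and without high-fat replicate 4 they were 0.52, 0.63 and 0.55. Ifit1 went its own way. Scaled levels were 2.35, -0.54, -0.29 and -0.45 in high-fat replicates 1 to 4, against 0.26, -0.80, -0.10 and -0.42 in normal replicates 1 to 4. High-fat replicate 1 stood alone, the other 7 animals overlapped, and the difference of 0.52 within-group SDs turned to -0.45 without that animal.

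**Figure D2:**
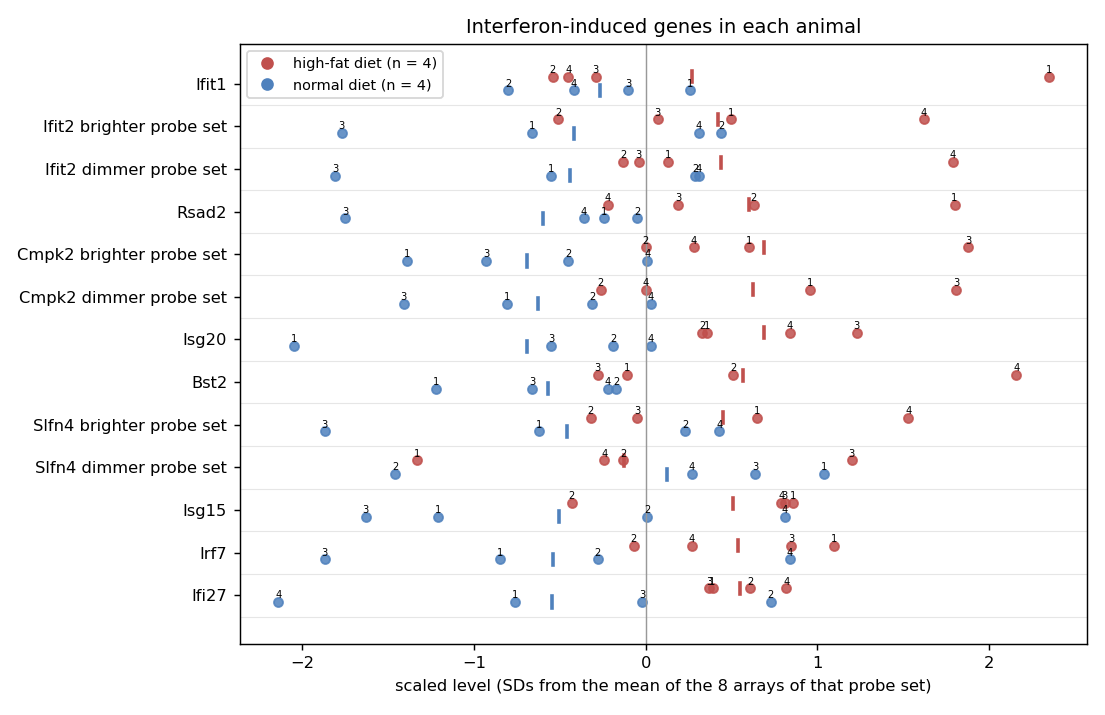
Scaled level of each member probe set in each animal (points, numbered by replicate), with a bar at the mean of each diet, 4 animals each. The high-fat points of Isg20 all lie above the normal ones, while in Ifit1 a single high-fat animal, replicate 1, lies at 2.35 and the rest overlap.

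The modifier Isg15 had scaled levels of 0.86, -0.43, 0.81 and 0.79 in high-fat replicates 1 to 4, against -1.21, 0.01, -1.63 and 0.81 in normal replicates 1 to 4. Normal replicates 1 and 3 were low, and the other 6 animals overlapped. Irf7 shared this split. Its scaled levels were 1.10, -0.07, 0.85 and 0.27 in high-fat replicates 1 to 4, against -0.85, -0.28, -1.87 and 0.84 in normal replicates 1 to 4. The differences were 0.00126 ± 7.55e-04 for Isg15 and 0.00347 ± 0.00190 for Irf7 (SE, n = 4 and 4), or 1.11 and 1.22 within-group SDs. Without normal replicate 4, the high animal of its group in both genes, they were 2.0 and 2.35, with an adjusted p of 1.000 in limma for each. Without normal replicate 3, the lowest animal in both genes, they were 0.78 and 0.93. Ifi27 had scaled levels of 0.39, 0.61, 0.37 and 0.82 in high-fat replicates 1 to 4, against -0.76, 0.73, -0.02 and -2.14 in normal replicates 1 to 4. The high-fat animals lay close together, with an SD of 0.00537 in deposited units, against 0.0313 in the normal group, whose replicates 4 and 1 were low. The difference was 0.0279 ± 0.0150 (SE), or 1.24 within-group SDs. Without normal replicate 2, the high animal of that group, it was 2.17, and without high-fat replicate 4, the highest animal, it was 1.05.

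Averaged over the 10 genes, with the brighter probe set of each, the scaled level was 0.85, 0.02, 0.48 and 0.76 in high-fat replicates 1 to 4, against -0.87, -0.05, -1.12 and -0.07 in normal replicates 1 to 4. The group means were 0.528 ± 0.374 (SD, n = 4) and -0.528 ± 0.547. Normal replicate 3 was below its gene's mean in all 10 genes and lowest in 5 of them, and normal replicate 1 was below in 9 and lowest in 3. High-fat replicates 1 and 4 were highest in 4 genes each and high-fat replicate 3 in 2. The animals with the high values were thus not the same from gene to gene. No test is given for this average, since its genes were chosen with the direction of interferon genes in these arrays known.

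Over the 8 arrays, several of these genes varied together. The median Pearson's r over the 45 gene pairs was 0.48, with 42 pairs above 0 and 21 above 0.5. For comparison, the median r of a member with all other probe sets lay between -0.093 and 0.060, and with the probe sets that had an SD of at least 1e-05 between -0.11 and 0.20. The median over the 45 pairs was 0.22 after the mean of each diet was removed, with 28 pairs above 0, and 0.17 with each array centred on its median. Ifit1 and Ifi27 had the lowest median r with the others. Without these 2 genes, left out with their values in view, all 28 remaining pairs were above 0 over the 8 arrays, with a median of 0.64. That choice favours such a result. After the mean of each diet was removed, some of the 28 were below 0, down to -0.38 for Rsad2 with Bst2. By exact permutation over all 40320 orderings (two-sided), 5 pairs had an adjusted p under 0.05 over the 45 for Pearson's r, and 4 for Spearman's rho. Unadjusted, 11 and 10 pairs had a p under 0.05. Ifit2 and Slfn4 were the closest pair, with r = 0.99 (exact permutation p = 7.44e-05, adjusted p = 0.00335) and rho = 0.98 (exact permutation p = 3.97e-04, adjusted p = 0.0171). The correlation was 0.99 within diets and 0.95 without normal replicate 3 and high-fat replicate 4, the animals farthest from the median of Ifit2. It was the 1 pair that kept an adjusted p under 0.05 whichever animal was left out. An r of at least 0.9 with the brighter Ifit2 probe set was reached by 0.226% of all probe sets and by 0.511% of those with an SD of at least 1e-05.

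Isg15 and Irf7 had r = 0.95 (exact permutation p = 6.45e-04, adjusted p = 0.0145) and rho = 0.95 (exact permutation p = 0.00114, adjusted p = 0.0171), with 0.93 within diets. Without the animals farthest from the median of Isg15, normal replicates 1 and 3, r was 0.82. Leaving out either of these alone ended the call, with an adjusted p by exact permutation of 0.0774 and 0.116 at r of 0.95 and 0.91. Quantile normalization on top ended it too (r = 0.87, adjusted p = 0.200 by exact permutation). Isg15 also followed Slfn4 (r = 0.86, exact permutation p = 0.00193, adjusted p = 0.0290) and Ifit2 (r = 0.85, exact permutation p = 0.00335, adjusted p = 0.0377). Irf7 was not called with Slfn4 (r = 0.78, exact permutation p = 0.0247, adjusted p = 0.131) or with Ifit2 (r = 0.73, exact permutation p = 0.0412, adjusted p = 0.169), and without normal replicate 3 these were 0.48 and 0.41. Their rho was 0.71 (exact permutation p = 0.0576, adjusted p = 0.216) and 0.64 (exact permutation p = 0.0962, adjusted p = 0.271), and r was 0.77 and 0.68 without high-fat replicate 4 and normal replicate 3. By rank, Isg15 had a rho with Slfn4 of 0.81 (exact permutation p = 0.0218, adjusted p = 0.140) and with Ifit2 of 0.74 (exact permutation p = 0.0458, adjusted p = 0.206). Within diets r was 0.81 for Isg15 with Slfn4 and 0.80 with Ifit2. Without high-fat replicate 4 and normal replicate 3 it was 0.85 and 0.83. Calls of both pairs were lost without high-fat replicate 1 or 2 or normal replicate 1, 3 or 4, and that of Ifit2 also without high-fat replicate 4, with r still between 0.72 and 0.89. Quantile normalization on top ended both (r = 0.78 and adjusted p = 0.200 by exact permutation for each), and centring ended that of Ifit2 (r = 0.83, adjusted p = 0.0656 by exact permutation).

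Cmpk2 and Isg20 were a further called pair, with r = 0.89 (exact permutation p = 0.00494, adjusted p = 0.0444) and rho = 0.95 (exact permutation p = 0.00114, adjusted p = 0.0171). Within diets r was 0.76, and without high-fat replicate 3 and normal replicate 1 it was 0.85. The call was lost when any animal but high-fat replicate 3 was left out, at r from 0.89 to 0.91, and with each array centred on its median (r = 0.39, adjusted p = 0.734 by exact permutation). Cmpk2 and Irf7 also had rho = 0.93 (exact permutation p = 0.00223, adjusted p = 0.0251), with r = 0.77 (exact permutation p = 0.0263, adjusted p = 0.131), 0.63 within diets and 0.91 without high-fat replicate 3 and normal replicate 1. Cmpk2 with Isg15 was not called, at r = 0.78 (exact permutation p = 0.0178, adjusted p = 0.131) and rho = 0.83 (exact permutation p = 0.0154, adjusted p = 0.138). Within diets their r was 0.68, and without the same 2 animals 0.86.

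**Figure D3:**
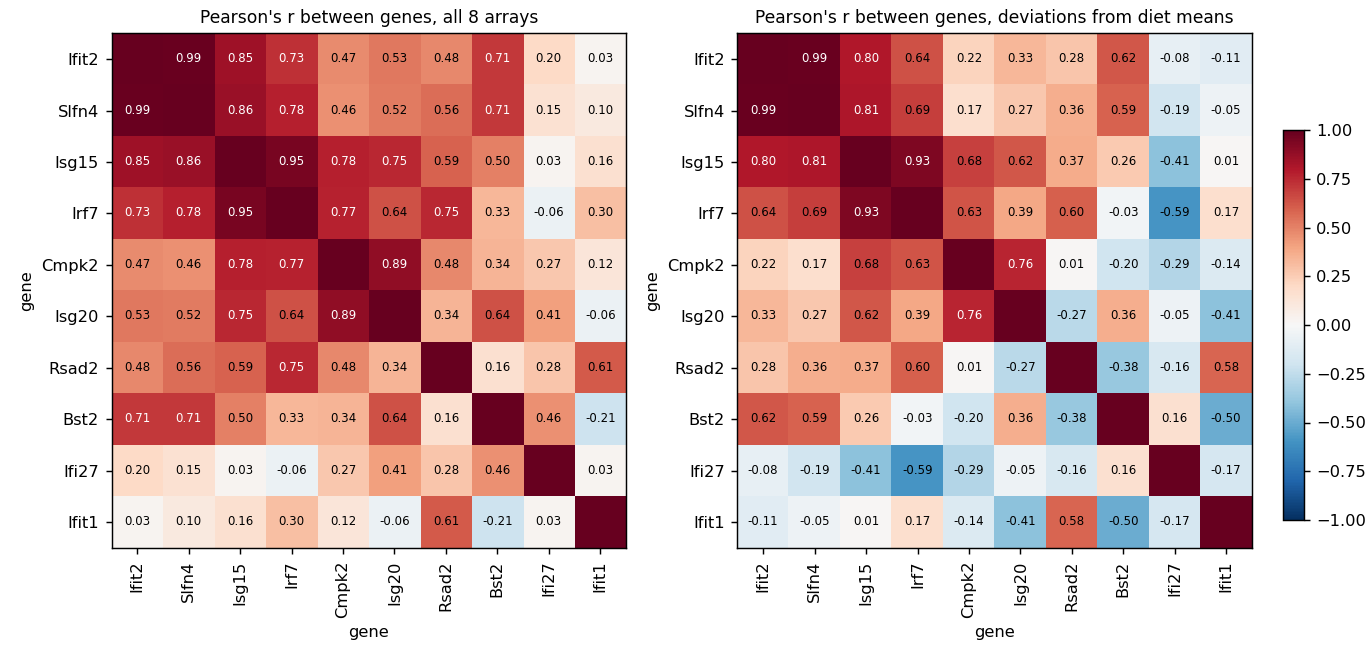
Pearson's r between each pair of the 10 genes over all 8 arrays (left) and after the mean of each diet is removed (right), from -1 (blue) to 1 (red). Ifit2, Slfn4, Isg15 and Irf7 have values of 0.64 or more on the right, of which Ifit2 with Irf7 (0.64) and Slfn4 with Irf7 (0.69) were not called over all 8 arrays, while Ifi27 and Ifit1 have no value above 0.5 with another gene there except Ifit1 with Rsad2 (0.58).

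Neighbouring genes did not all move together. Rsad2 and Cmpk2 are adjacent protein-coding genes in GRCr8, and in the cell their products act in sequence on the same nucleotide. Their correlation was r = 0.48 (exact permutation p = 0.204, adjusted p = 0.413) and rho = 0.57 (exact permutation p = 0.151, adjusted p = 0.296). It was 0.01 within diets and 0.33 without high-fat replicate 1 and normal replicate 3. Ifit1 and Ifit2 are separated by 2 protein-coding genes, Ifit3 and Ifit1bl. Ifit1 and Ifit2 had r = 0.03 (exact permutation p = 0.927, adjusted p = 0.943) and rho = -0.24 (exact permutation p = 0.582, adjusted p = 0.708), with -0.11 within diets and -0.54 without high-fat replicate 1 and normal replicate 1. Ifit3, whose protein partners with other Ifit proteins, is no member and was added with its values in view, so its correlations are description. Over the 8 arrays r was 0.95 with Ifit2 and -0.02 with Ifit1, and within diets 0.94 and -0.17. Across the other 9 members, Ifit1 had a median r of 0.10 and Ifi27 one of 0.20, against medians from 0.46 (Bst2) to 0.75 (Isg15) for the other genes.

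**Figure D4:**
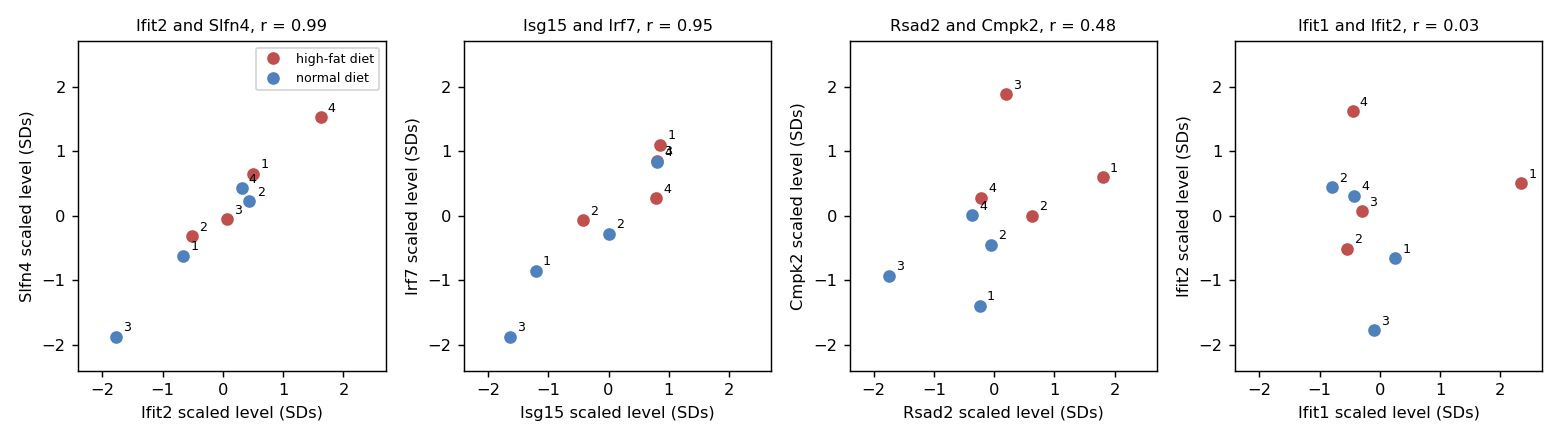
Scaled levels of 4 gene pairs, each point an animal numbered by replicate, in SDs from the mean of the 8 arrays. Ifit2 with Slfn4 and Isg15 with Irf7 fall along a line, while Rsad2 with Cmpk2 (r = 0.48) and Ifit1 with Ifit2 (r = 0.03) do not.

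Genes elsewhere in the pathway were not distinguished between the diets either. Of 108 genes listed by role, 79 had a named probe set, and 0 passed limma at an adjusted p of 0.05, against 0% of all probe sets. Before adjustment 0 of the 79 had a p under 0.05. Of the 79, 49 were higher and 30 lower with the high-fat diet, with a median of 0.23 within-group SDs, against -0.048 for all probe sets. That median was -0.08 without normal replicate 3, 0.00 without high-fat replicate 4 and -1.15 with each array centred on its median. Of the 20 genes named in what follows, 14 took the opposite sign with centring.

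The ligands were dim. Of 10 listed, 3 had a named probe set, at levels of at most 6.01, among them Ifnb1 (-0.51 within-group SDs) and Ifng (0.29), the interferons of most nucleated cells and of T and natural killer cells. Of 6 receptor chains, 3 were higher and 3 lower. Ifnar2, a chain of the type I receptor, stood at -0.33 within-group SDs, Ifnlr1, of the type III receptor, at 0.34, and Ifngr1, a chain of the interferon gamma receptor and the brightest of them at a level of 8.59, at 0.20. Among kinases and transcription factors 6 of 10 were higher. Irf8, a factor of monocytes and dendritic cells, stood at 0.64, Irf9, which binds the response element, at 0.60, and Jak1, at a level of 10.57, at 0.01. Of sensors and adaptors, 7 of 8 were higher. The RNA helicase Dhx58 stood at 1.74 and the adaptor Sting1, the 1 lower gene, at -0.80. Without normal replicate 3 they stood at 4.19 and -1.87, and with centring Dhx58 stood at -1.20. The SD of Dhx58 over the 8 arrays was 7.05e-07, and its limma p was 0.307 before adjustment. Of inhibitors, 4 of 6 were higher, with Usp18, which strips Isg15 from proteins and quiets the receptor, at 1.06, and the phosphatase Ptpn11 at 0.47.

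Among the pathway lists, other antiviral effectors were nearest to the members, with 23 of 29 higher and a median of 0.50 within-group SDs. Sp100, a nuclear body protein, stood at 1.52, the secreted glycoprotein Lgals3bp at 1.36, and Slfn2, the brightest of the list at 9.82, at 0.30. Lgals3bp stood at 3.88 without normal replicate 4 and at 1.33 with centring, and Sp100 at -1.13 with centring. Interferon-induced GTPases had 2 of 5 higher, with Irgm at 0.56 and Irgm2 at 0.46. Without high-fat replicate 4 these were 0.01 and -0.07, and with centring -1.37 and -1.49. In the list of induced chemokines and antigen processing genes, 3 of 12 were higher. The chemokine Cxcl10 stood at 1.27 (2.46 without high-fat replicate 1 and -1.16 with centring), Tapbp, which helps load class I molecules, at 0.72, and B2m, the light chain of class I at a level of 14.29, at -0.46. As with Dhx58, the SD over the 8 arrays was under the median of 6.07e-06 in Ifnb1, Ifng, Ifnlr1, Irf9, Sp100 and B2m. It was 1.61e-07 in B2m and 4.06e-06 in Sp100, and 6.58e-06 in Cxcl10. Differences in within-group SDs of these genes rest on very small deposited differences.

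Likeness to the members over the 8 arrays did not order the lists as the diet differences did. Measured as Pearson's r with the mean scaled level of the 10 genes, and given as description with no test, the median was 0.40 over the 79 pathway genes and 0.10 over 7682 other named probe sets with an SD of at least 1e-05. An r over 0.5 was reached by 26 of the 79, against 9.31% of the 7682, and 18 of those 26 were other antiviral effectors. Unlike the 7682, the 79 were not limited by SD. The list medians were 0.53 for other antiviral effectors, 0.40 for the GTPases, 0.35 for chemokines and antigen processing, 0.33 for sensors, 0.32 for kinases and transcription factors, 0.28 for inhibitors, 0.15 for receptors and -0.19 for ligands. Some blood cell marker lists had medians as high, at 0.55 for natural killer and cytotoxic, 0.45 for neutrophil and 0.44 for monocyte markers. Those of red cell and plasmacytoid dendritic cell markers were 0.40 and 0.37. B cell, T cell and platelet markers had 0.07, 0.05 and 0.02. Likeness to the members was thus not particular to the pathway lists. The 8 genes with the highest r of all were Dusp11, an RNA phosphatase (0.97), Chid1 (0.89), Klf1, a red cell transcription factor (0.89), Atp6v1e1, a proton pump subunit (0.88), Tafa3 (0.88), Plod1, a collagen lysyl hydroxylase (0.88), Tcp1, a chaperonin subunit (0.88), and Usp18 (0.87). Usp18 was the 1 of these in the pathway lists. Among the other 7 none is an interferon pathway gene by those lists. Their SDs, between 1.06e-05 and 1.86e-04, lay below those of the widest members and spanned those of Rsad2, Isg20 and Bst2.

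Blood cell markers also differed between the animals with high and low values. Natural killer and cytotoxic cell markers had 9 of 9 higher with the high-fat diet, against 46.6% of all probe sets. Their median was 0.70 within-group SDs. Their mean scaled level was 2.07 in high-fat replicate 4 and between -0.42 and -0.05 in the other 3 high-fat animals, against -0.66 to 0.10 in the normal group. Monocyte markers, 8 of 9 higher, were likewise at 1.78 in high-fat replicate 4 and between -0.46 and -0.20 in the other high-fat animals, against -0.48 to -0.08 in the normal group. That animal was the highest in Ifit2, Slfn4, Bst2 and Ifi27. Red cell markers had 7 of 8 higher and 1, Hbb, equal, with a median of 1.28, and 3 of the 8 had an unadjusted limma p under 0.05, against 2.25% of all probe sets. Their scaled levels were 0.91, 0.32, 0.89 and -0.24 in high-fat replicates 1 to 4, against -0.48, -0.36, -0.53 and -0.51 in normal replicates 1 to 4, so these averages did not overlap. No background share was computed for averages of a list. Of the 8 single markers, 1, Hemgn, did not overlap, against 1.44% of all probe sets. Hemgn, made in developing red cells, stood 2.63 within-group SDs above normal. High-fat replicates 1 and 3, with the highest red cell levels, were the highest animals in Ifit1, Rsad2, Isg15, Irf7, Cmpk2 and Isg20. In Isg15 normal replicate 4 (0.81), at -0.51 for red cell markers, lay close to high-fat replicate 1 (0.86). The order was not shared throughout. High-fat replicate 4, at -0.24 for red cell markers, had a mean of 0.76 over the 10 genes, and high-fat replicate 2, at 0.32, one of 0.02.

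Normal replicate 3 was the lowest animal in 5 of the 10 genes. By mean scaled level it was also lowest for neutrophil (-1.04), T cell (-1.24) and natural killer (-0.66) markers. For red cell markers it was lowest at -0.53, close to normal replicate 4 (-0.51). For the mean of 3 plasmacytoid dendritic cell markers, Tcf4, Tlr7 and Irf8, it was lowest at -1.07, with high-fat replicate 3 at -1.03. Tlr7 by itself was lowest in high-fat replicate 3, and Tlr7 and Irf8 are also in the pathway lists. Normal replicate 3 was not lowest for monocyte (-0.18), B cell (-0.91) or platelet (-0.08) markers. This array held the lowest value of 18.9% of all probe sets. The B cell list ran from -0.96 to 0.85 in the high-fat group, against -0.91 to 1.07 in the normal group, and the neutrophil list from -0.92 to 0.83, against -1.04 to 0.84. Of 8 T cell markers 8 were lower with the high-fat diet, with a median of -0.40 within-group SDs, as were 4 of 5 B cell and 5 of 7 platelet markers, with medians of -0.19 each. Over all probe sets 16575 of 31042 were lower. Neutrophil markers had 4 of 7 higher, with a median of 0.03. No marker of any of these lists passed limma at an adjusted p of 0.05. Markers of a list can share the animals with high or low values, so these counts are not separate observations. The part of cell makeup in the values of the interferon-induced genes was not tested.

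**Figure D5:**
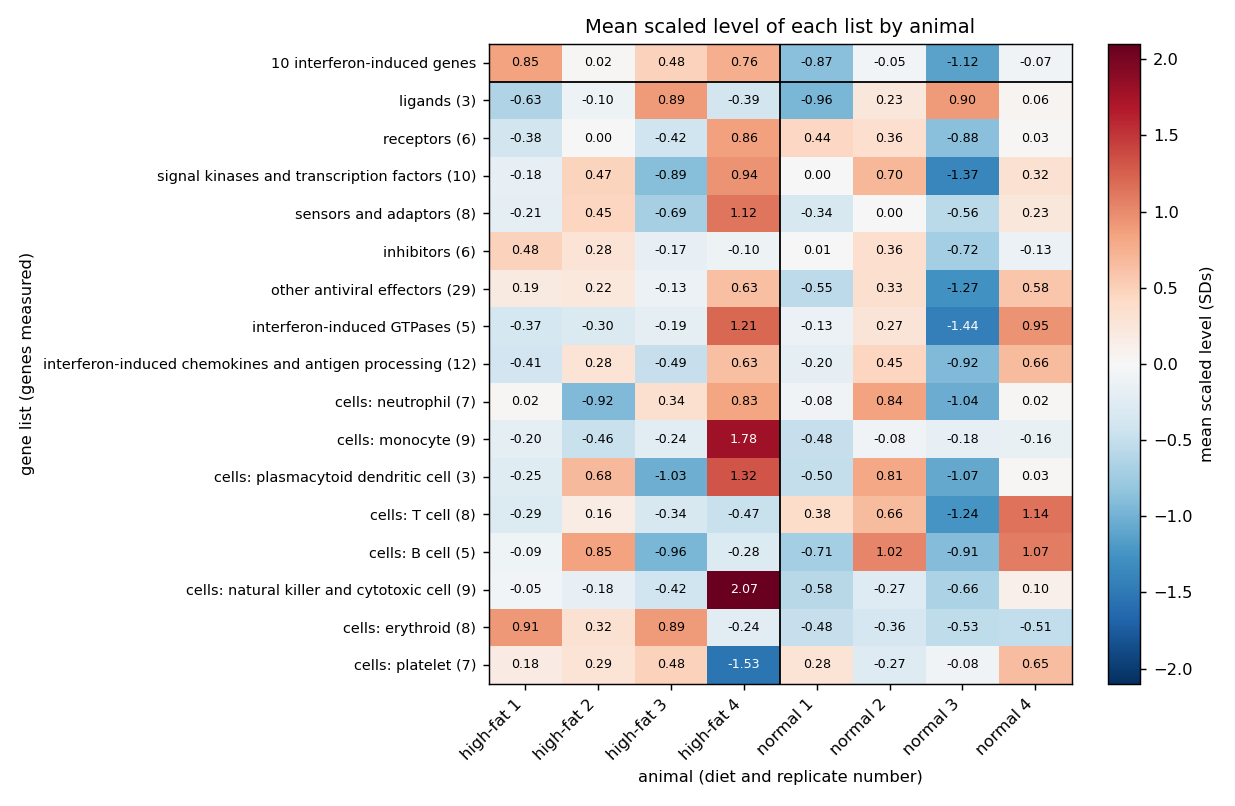
Mean scaled level of the 10 interferon-induced genes (top row), of the other interferon pathway lists and of the blood cell marker lists in each animal, with the 4 high-fat animals on the left, in SDs. Normal replicate 3 is at -1.12 in the top row and at -1.27 for other antiviral effectors, and high-fat replicate 4 is at 2.07 for natural killer and 1.78 for monocyte markers.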

How the data were processed

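Per the labels' protocols, blood was mixed with a phenol reagent, and total RNA was column-purified, amplified and biotin-labelled from 200 ng for Affymetrix 3' expression arrays. The authors deposited log2 values for 31099 probe sets in 8 arrays. Background correction, normalization and summary of probes are not given in the sources used here. Each sample's title gave its group and replicate number. The 57 control probe sets were left out, and gene names came from the platform annotation, which gave 1 symbol for 20826 of the 31042 remaining probe sets, several for 436 and none for 9780. Signal over background was not analysed. With 4 arrays per diet, their number limits the precision.

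The diets were compared in limma 3.58.1 under R 4.3.3 (lmFit and eBayes, two-sided, diet as the only term). P-values of all 31042 probe sets were adjusted by Benjamini-Hochberg with 0.05 as threshold, and the script was tested on simulated data. In lists, each gene was represented by its brightest probe set. Pair correlations used all orderings of the arrays and were adjusted over 45 pairs, separately for Pearson and Spearman. The members and lists were chosen with earlier results of these data known. Named were all members, of each pathway list the 2 genes with the smallest p and the brightest, and the 8 genes most like the member mean over the arrays. Hemgn is the red cell marker with the smallest p, while Ifit3, Hbb, Alas2 and the members of small sets were chosen with their values in view. Alternatives were quantile normalization on top, centring, the brighter probe sets, eBayes with trend and robust, the replicate block, other summaries of a gene's probe sets and leaving out each animal. Leaving out normal replicate 3 and high-fat replicate 4 together was added after seeing the data. The planned floor was dropped because the values are already on a log scale.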

Additional observations from a re-analysis of the deposited data

Results flagged for a closer look

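Values were set beside each other within each diet by the gap between an extreme animal and its nearest neighbour, as a share of the range of the 4 animals. Among 66 groups of 4, for the members and the named pathway genes, 4 had a gap above Dixon's critical value. That is close to the share of about 1 in 20 that chance alone gives, so the 4 are listed as description. Ifit1 had its highest high-fat animal, replicate 1, separated by 0.915 of the range. In the dimmer probe set of Ifit2, high-fat replicate 4 was separated upwards by 0.865 of the range. In Isg15, high-fat replicate 2 lay below the other 3 high-fat animals by 0.946 of the range, at a scaled level of -0.43. The adaptor Sting1 had normal replicate 3 separated downwards by 0.927 of the range, at a scaled level of -1.18.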

How the results depend on the processing

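Over all probe sets, limma called 0 in the main setting and under each alternative but quantile normalization on top, which called 32, and 30 of those 32 had a within-group SD under 1e-10. No member probe set was called under the alternatives with a call for each probe set, which leaves out the one without both normal replicate 3 and high-fat replicate 4. The median member difference, 1.22 within-group SDs, ranged from 0.93 without normal replicate 3 to 1.35 without normal replicate 4, and was 0.88 with quantile normalization on top, 0.90 with centring and 0.96 without both normal replicate 3 and high-fat replicate 4. Among 165 recomputed member values, 159 kept their sign. With quantile normalization, 3 member probe sets (Rsad2, Isg20 and the dimmer one of Slfn4) had no spread or no difference and are not among the 165. The 6 that turned were Ifit1 without high-fat replicate 1 (-0.45, the lowest of the values without an animal, which reached 0.76), Rsad2 and Isg20 with centring (-0.64 and -0.19), the brighter Cmpk2 probe set with quantile normalization (-0.01), and the dimmer Slfn4 probe set without high-fat replicate 1 (0.16) or normal replicate 1 (0.06), with a lowest value without an animal of -0.92. Centring moves every difference by -6.60e-05, more than those of Rsad2 and Isg20. For the others the cause was not tested. The median pair correlation, 0.48, was 0.38 without normal replicate 3 and 0.60 without normal replicate 4, the lowest and highest of the values without an animal, 0.22 on deviations from the diet means, 0.17 with centring and 0.11 with quantile normalization, which left 28 of 45 pairs with any spread. The median of the other pathway genes, 0.23, was -1.15 with centring. Of 20 named pathway genes, 14 took the opposite sign with centring, each with a difference smaller than that shift of -6.60e-05. With the replicate number as a block, limma again called 0 probe sets, the median member stood at 1.15 and the median pathway gene at 0.22. The numbers were not taken as pairs, since arrays of the same number correlated at -0.12, 0.21, 0.37 and 0.14 in their deviations from the diet means, and 2 of 4 high-fat arrays correlated best with their own number.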
